A study of Mus musculus x Rattus norvegicus with 2 samples.

Results

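Rat and mouse smooth muscle cells from chimeric lung, taken up in the same library, were compared. The lung tissue came from wild-type rat hosts carrying mouse cells, was taken at E20.5, late in gestation, and is labelled with the strains C57BL/6 and SD. It is the control library of a study that also profiled mouse lung grown in Nkx2-1-/- rat hosts, which was not used here. Cells were read as 10x 3' v3 droplets, in which each captured RNA molecule is counted once through a molecular tag (UMI), against a joint set of mouse and rat genes. Only 1 control library was used, and the labels do not say how many embryos were pooled in it. Cells of 1 library are not replicates, so no test between the species was possible, and every interval given covers counting error only.

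The members were chosen by measured values. A barcode had to have at least 500 genes and at most 20% mitochondrial UMIs, and it was called mouse when at least 90% of its UMIs lay on mouse genes and rat when at most 10% did. Within its own species' genes it then needed at least 10 UMIs of Actg2, Myh11 and Cnn1 summed, at most 2 of Epcam (an epithelial adhesion gene) and at most 2 of the endothelial genes Cdh5 and Pecam1 summed. In all, 530 cells met the rule, 395 mouse and 135 rat, of 9021 barcodes that passed the quality limits and 11129 in the library; both libraries of the series together held 22047. Of the barcode strings, 47 occurred in both libraries, and 2 mouse and 0 rat members were among them. The joint gene set has no rat Pecam1, so the endothelial limit rested on Cdh5 alone in rat cells.

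Visceral and vascular smooth muscle contracts when calcium and calmodulin activate myosin light chain kinase, which lets myosin (Myh11) pull on filaments of smooth muscle actins (Acta2, Actg2). Calponin (Cnn1), transgelin (Tagln), caldesmon and the tropomyosins sit on those filaments and tune the contraction, and the co-activator myocardin (Myocd) with serum response factor (Srf) drives the genes. In the late fetal lung such cells wrap the airways and the arteries, and alveolar myofibroblasts, which build the elastic fibres of the future septa, carry part of the same programme. Nitric oxide relaxes the muscle through soluble guanylate cyclase and cyclic GMP, which is broken down by phosphodiesterase 5.

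Rat cells made up 25.5% of the gated smooth muscle cells (135 of 530; 95% Clopper-Pearson interval 21.8 to 29.4). By comparison, they made up 8.22% of fibroblasts (256 of 3114), 20.8% of epithelial cells (218 of 1046) and 8.91% of all cells of either species (725 of 8139). Seen from within each species, the gate took 18.6% of rat cells (15.9 to 21.6) and 5.33% of mouse cells (4.83 to 5.86). Fibroblasts here are cells with at least 10 UMIs of Col1a1, Col1a2 and Col3a1 summed (rat Col1a2 is not among the rat genes) and epithelial cells have at least 3 of Epcam, in both cases with at most 2 UMIs of the gate genes. These 2 sets serve below as references from the same library. Pericytes were not excluded from the fibroblasts: Cox4i2, a listed pericyte marker, had a UMI in 46.1% of rat and 15.4% of mouse fibroblasts. The rat share of smooth muscle depended on the gate: it was 20.2% with at least 5 gate UMIs, 34.9% with at least 20 and 43.2% with at least 10 UMIs of Actg2 alone.

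The 3 genes that chose the cells were denser in the rat members, which is a description and not a result. Their sum had a median of 43 UMIs per rat cell and 21 per mouse cell, or 64.4 and 20.4 per 10000 own-species UMIs. In mouse cells 72 members lay just inside the limit, at 10 to 12 UMIs, and 95 cells lay just outside it, at 7 to 9. In rat cells the corresponding numbers were 10 and 11. Summed over cells and scaled to 1000000 own-species UMIs (CPM), Actg2 stood at 867 in mouse and 3248 in rat, Myh11 at 1704 and 3290, and Cnn1 at 306 and 1414. Rat cells were the shallower set, with a median of 7026 UMIs and 2527 genes against 10949 UMIs and 3724 genes in mouse cells. The sums rest on 1181431 rat and 5387962 mouse UMIs. Mitochondrial UMIs were a median 5.40% in rat and 2.97% in mouse cells.

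UMIs of mouse genes were present in the rat droplets. A rat member carried a median of 7.05% mouse UMIs (highest 9.88%, close to the limit), while a mouse member carried 0.648% rat UMIs. Each species was read on its own genes only. A mouse UMI in a rat droplet can be free mouse RNA or a rat molecule assigned to the mouse gene, and these cannot be told apart. Requiring at most 5% left only 11 rat members.

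The cells carried the smooth muscle programme beyond the gate. Tagln had a UMI in 395 of 395 mouse and 135 of 135 rat members, and Acta2 in 395 and 134. In fibroblasts of the same library Tagln stood at 109 CPM in mouse and 252 in rat (UMIs in 34.7% and 41.0% of cells), against 3752 and 9295 in the gated cells. Of the lists of other cell types, alveolar myofibroblast markers summed highest, to 3261 CPM in mouse and 1894 in rat members. That list shares Hhip and Fgf18 with the airway muscle list. Alveolar fibroblast markers summed to 504 CPM in mouse and 330 in rat members, adventitial fibroblast markers to 360 and 83.8, pericyte markers to 524 and 313 and erythroid markers to 461 and 730. Lower were the epithelial list, which summed to 268 CPM in mouse and 23.7 in rat members, the endothelial list to 32.7 and 5.93, the immune list to 26.7 and 5.93, the Schwann and neural list to 12.8 and 12.7, and the mesothelial list to 27.8 and 3.39; their part in the differences below was not tested. At 0 UMIs were 1 of 8 epithelial, 3 of 6 endothelial, 3 of 7 immune, 4 of 7 neural and 5 of 6 mesothelial genes in rat members; in mouse members it was 0, 0, 0, 4 and 1. Most of the epithelial sum in mouse members was the surfactant gene Sftpc, at 218 CPM against 30581 in mouse epithelium, and 90.9% of mouse members had a UMI of it.

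**Figure D1:**
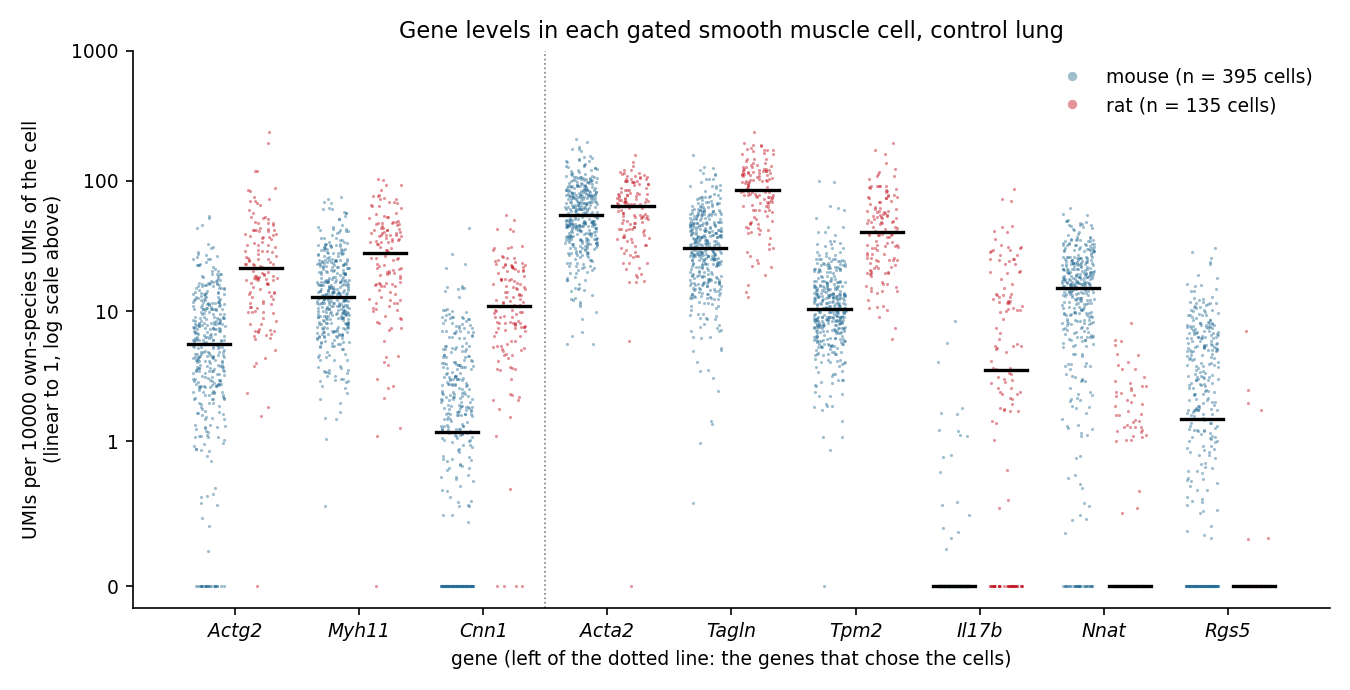
UMIs per 10000 own-species UMIs (y axis, linear to 1 and logarithmic above) of 9 genes in each of the 395 mouse (blue) and 135 rat (red) gated cells, with the median of each set as a black bar. The 3 genes left of the dotted line chose the cells. Acta2 overlaps almost fully, Tagln and Tpm2 lie higher in rat cells, Il17b has a median above 0 in rat cells only, and Nnat and Rgs5 in mouse cells only.

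The comparison covered 3855 gene symbols that both gene sets hold, that had at least 20 UMIs in the cells of each species, and that reached 50 CPM in smooth muscle of either. The difference was taken as log2 of (rat CPM + 10) over (mouse CPM + 10), and 1 on this scale (2-fold) in either direction was the limit for a call. Its median over the 3855 symbols was 0.01 (quartiles −0.62 and 0.51), and 73.4% of symbols lay within 2-fold. At least 2-fold higher in rat were 391 symbols (10.1%) and in mouse 634 (16.4%). The counts of called genes in the lists below are to be read beside these shares. A difference of this kind can come from the cells or from how completely each species' gene is annotated and captured, which a comparison of 2 genomes cannot tell apart. The same symbols were therefore read in fibroblasts and epithelium. Of the 391, 139 (35.5%) were also past 2-fold the same way in both of these sets, and of the 634, 347 (54.7%) were. Symbols whose smooth muscle value lay at least 1 log2 above that in both other sets numbered 91 (2.36%), and 69 (1.79%) lay that far below both. Where a symbol is nearly absent from both references, the 10 CPM added holds its reference values near 0. Its relative value then repeats the raw one and cannot tell capture apart from the cells.

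For many of the symbols with the widest raw difference, much but not all of it was common to smooth muscle, fibroblasts and epithelium. Exceptions in that ranking were Il17b, Serpinb1a and Rab3b, with log2 values between −0.45 and 0.35 in the references. S100a9, at −4.02 in smooth muscle, stood at −1.91 in fibroblasts and −0.04 in epithelium. These 4 are described below. Ptma, which encodes the chromatin-associated protein prothymosin alpha, had 3853 CPM in mouse and 26.2 in rat smooth muscle, a log2 value of −6.74, and stood at −6.52 in fibroblasts and −7.34 in epithelium. Rat droplets held 192 UMIs of mouse Ptma beside 31 of rat Ptma. Tmsb10, an actin-monomer-binding thymosin, had −5.94, −6.10 and −4.93 in the same order. Its rat gene had 16 UMIs in rat members and 58 in mouse members, per cell 124% of the rat level, so it does not give a rat level for Tmsb10. The cytoplasmic actin Actg1 had −4.03, −3.97 and −4.83. The elastic-fibre glycoprotein Mfap4 had −6.13 in smooth muscle, −6.82 in fibroblasts and −3.67 in epithelium, with 129 UMIs of the mouse gene beside 14 of the rat gene in rat smooth muscle droplets. On the rat side Gng10, a G protein gamma subunit, had 6.94 in smooth muscle, 5.81 in fibroblasts and 4.64 in epithelium. For Ptma, Tmsb10, Actg1 and Mfap4 the difference was thus within 1 log2 of that in fibroblasts, whereas Gng10 lay 1.13 log2 above the nearer of the references. Gsta4, a glutathione transferase, stood at 5.23 in smooth muscle, 3.02 in fibroblasts and 1.49 in epithelium. Of the others ranked by raw difference, Cd48, Cthrc1, Nme2, Fam89b, Tmsb15b2 and Zbed5 lay between 3.84 and 4.62 towards rat, and H2az1, Sumo2, Dlk1, Pdcd5, Tle5, Celf2 and Tpi1 between −5.51 and −4.12 towards mouse. All of these but Cthrc1 were past 2-fold the same way in both references. Cthrc1, at 4.34 in smooth muscle, stood at 2.40 in fibroblasts and −0.61 in epithelium. Dlk1, at −4.49, stood at −4.33 and −1.55. For H2az1 rat droplets held 571 UMIs of the mouse gene and 21 of the rat gene, and for Celf2 118 and 10. Per cell these were 24.7% and, for Celf2, 20.05% of the level in mouse droplets, against 2.71% for Ptma, 0.617% for Nnat and 0.508% for Rgs5. Where the mouse gene takes UMIs of rat cells, the printed difference can exceed that between the cells; this was not tested.

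**Figure D2:**
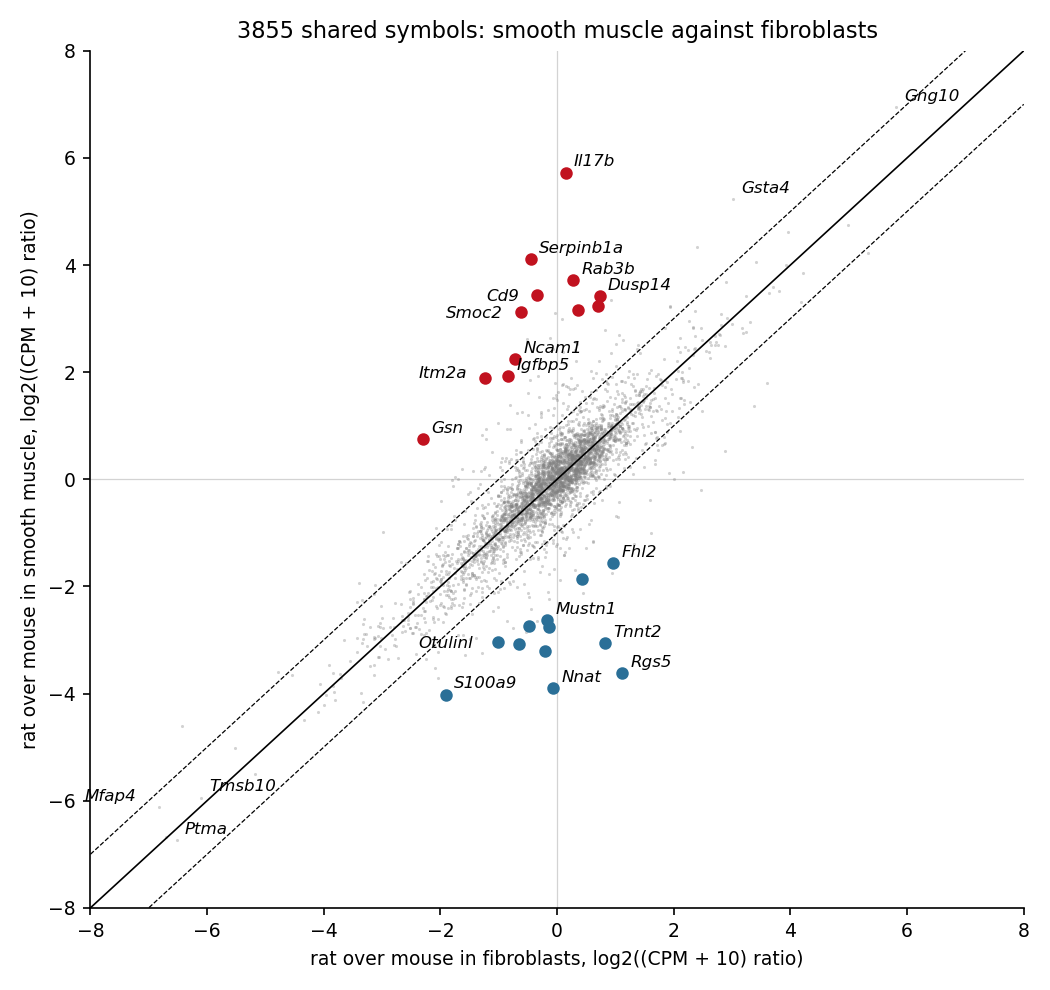
The rat over mouse log2 value of 3855 symbols in fibroblasts (x axis) and in smooth muscle (y axis), each a grey point, with the diagonal and lines 1 log2 to either side; the 24 symbols farthest from both fibroblasts and epithelium are in red (12, relatively higher in rat) and blue (12, relatively higher in mouse). Most symbols lie near the diagonal, Ptma and Tmsb10 included, whereas Il17b, Serpinb1a, Nnat and Rgs5 lie far from it.

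Contractile genes were mostly somewhat denser in rat cells, with smooth muscle actin itself level. They are expressed together with the gate genes, and the rat members were also denser in those, so the values are a description and not independent of how the cells were chosen. Of the 14 thin-filament and actin-binding genes outside the gate, 4 were at least 2-fold higher in rat and 1 in mouse, and 13 of 14 lay above 0 with a median of 0.69, beside 0.01 for all symbols. Tpm2, a tropomyosin, had 0 to 439 UMIs per mouse member with a median of 12 and 3 to 279 per rat member with a median of 27, so the sets overlapped. Its sums were 1331 CPM in mouse and 4892 in rat, 3.67-fold higher in rat (3.55 to 3.80). Tagln had a median of 33 UMIs in mouse members (1 to 1391) and 66 in rat members (7 to 459), and was 2.48-fold higher in rat (2.42 to 2.54). Tpm1, a further tropomyosin, and Lmod1, the actin nucleator leiomodin, were 2.33-fold and 2.64-fold higher. Acta2 stood at 6399 CPM in mouse and 6601 in rat, a log2 value of 0.04, where it was −1.76 in fibroblasts and −1.11 in epithelium. Measured against both references, Tpm2 and Acta2 were the members at least 1 log2 above; Tagln, at 1.31 in smooth muscle, stood at 1.15 in fibroblasts and 2.32 in epithelium. Among cells with 20 to 100 gate UMIs per 10000 in either species, 197 mouse and 87 rat, Tagln stood at 0.69, Tpm1 at 0.78, Lmod1 at 0.55 and Tpm2 at 1.16, so only Tpm2 of the 4 stayed past 2-fold.

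Cardiac alpha actin (Actc1) went the other way, and through few cells. It summed to 815 CPM in mouse and 121 in rat, a log2 value of −2.65, but only 24.8% of mouse and 8.89% of rat members had a UMI of it. The 10 mouse cells with the most held 78.9% of its mouse UMIs, up to 1200 in a cell, and the 10 highest rat cells held 98.6%. Averaging the CPM of cells with equal weight gave −1.40. Tnnt2, cardiac troponin T, was similar: 130 CPM in mouse and 6.77 in rat, with 73.1% of the mouse UMIs in 10 cells. Without the cells with at least 3 UMIs of Rgs5, Notch3 and Mustn1 summed (250 mouse and 6 rat members, described below), the values were 0.27 for Actc1 and −0.54 for Tnnt2. The cardiac myosin genes Myh6 and Myh7 had 0 and 17 UMIs in mouse members and 0 and 0 in rat members.

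The motor and its control differed less. Of 10 myosin and regulator genes 1 was at least 2-fold higher in each species, beside 10.1% of all symbols towards rat and 16.4% towards mouse, with a median of 0.18. Mylk, the light chain kinase, stood at 1502 CPM in mouse and 1611 in rat. The light chain Myl9 stood at 1315 and 2433. The phosphatase subunits that switch contraction off diverged, Ppp1r12a at 223 CPM in mouse and 568 in rat, and Ppp1r12b at 104 and 29.6. Among 6 intermediate-filament and anchoring genes vimentin (Vim) was 2.76-fold higher in rat, as it was in fibroblasts (log2 1.46 and 1.18), and desmin (Des) stood at 342 and 378 CPM. The log2 value of Des was 0.14 over all members, 1.45 without the Rgs5, Notch3 and Mustn1 cells and −0.89 with 20 to 100 gate UMIs per 10000. Calcium-handling genes and ion channels were mostly below 50 CPM: 2 of 16 were compared, of which Cacnb2, a calcium channel subunit, was 4.66-fold higher in mouse and also higher in mouse fibroblasts.

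The transcription regulators of the programme did not follow the contractile genes as a group. Myocd was level at 128 CPM in mouse and 121 in rat (fold 1.05 towards mouse, 0.879 to 1.27). Of 11 compared, 2 were at least 2-fold higher in rat, Srf at 18.7 and 88.9 CPM and the lung mesenchyme factor Foxf1 at 360 and 900, and 3 in mouse, Mef2c, Tbx2 and Tbx3. These counts stand beside 10.1% of all symbols towards rat and 16.4% towards mouse. The list's median was −0.39. None of the 11 was 1 log2 or more from both references on the same side: Foxf1, for instance, stood at 1.30 in smooth muscle and 1.42 in fibroblasts, and Tbx2 at −3.71 and −3.70.

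**Figure D3:**
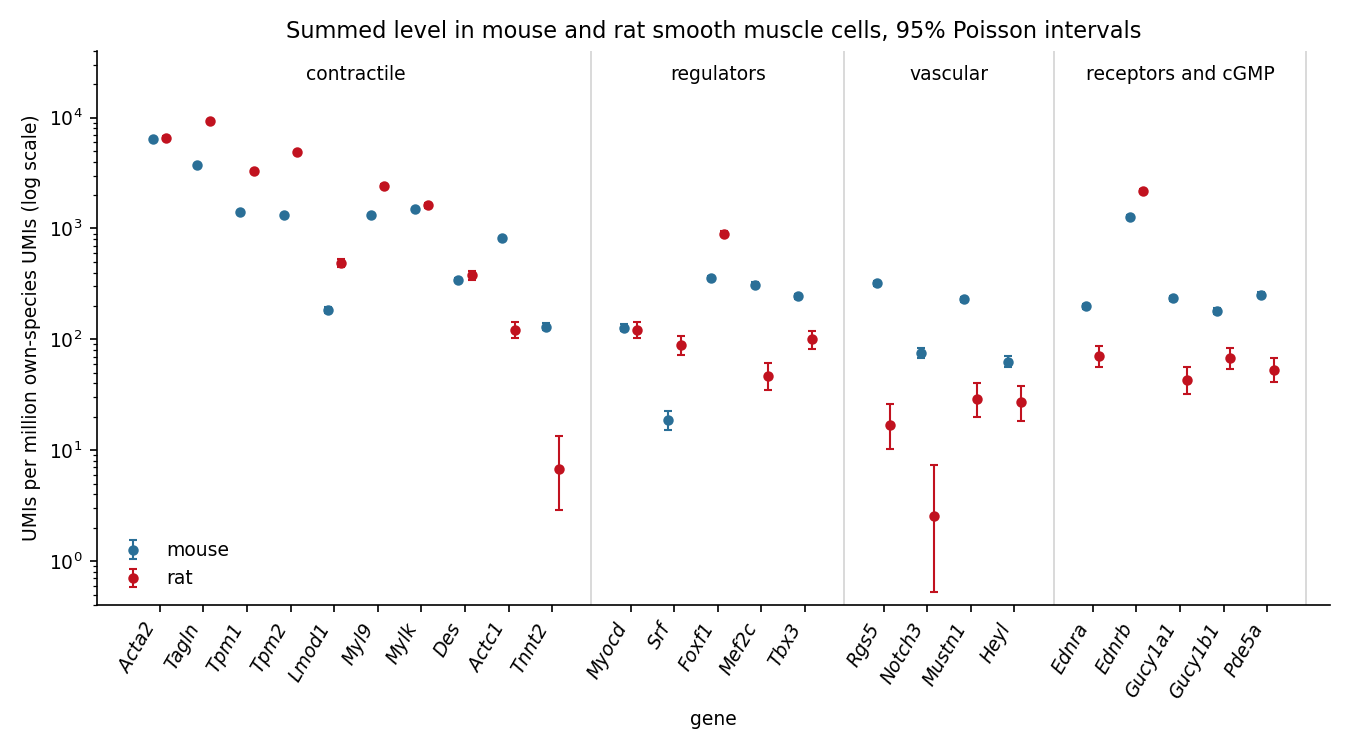
Summed level in UMIs per 1000000 own-species UMIs (log axis) of contractile genes, regulators, vascular markers, and receptors with cyclic GMP genes in mouse (blue, 395 cells) and rat (red, 135 cells) smooth muscle; bars are 95% exact Poisson intervals, which cover counting error only. Acta2, Mylk, Des and Myocd lie together, Tagln and the tropomyosins are higher in rat, and the vascular markers and the guanylate cyclase subunits are higher in mouse.

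Of the listed markers of vascular smooth muscle, Rgs5, Notch3 and Mustn1 were higher in mouse members; a UMI was seen in 65.6%, 30.1% and 54.7% of mouse members and in 4.44%, 2.22% and 16.3% of rat members. Rgs5, a G protein regulator of pericytes and vascular muscle, had 1727 UMIs in 259 of 395 mouse members and 20 UMIs in 6 of 135 rat members, 14 of these in 1 cell. It stood at 321 and 16.9 CPM, 18.9-fold higher in mouse (12.2 to 31.1), and at 19.1 CPM in mouse and 53.2 in rat fibroblasts. Notch3, the receptor that arterial muscle depends on, had 408 mouse UMIs and 3 rat UMIs, a ratio of 29.8 (10.1 to 145). Mustn1, a small muscle nuclear protein, stood at 230 CPM in mouse and 28.8 in rat, a log2 value of −2.63. Heyl, a Notch target, was 2.33-fold higher at 63.1 and 27.1 CPM. On the scale with 10 CPM added, 3 of the 4 compared markers were at least 2-fold higher in mouse and the median was −2.70. With species limits of 95% and 5%, which left 11 rat members, the median was 0.30, while Rgs5, Notch3 and Mustn1 were at −2.28, −2.31 and −2.38. The other 5 of the list (Gja4, Map3k7cl, Itga7, Rgs4 and Pde3a) were below 50 CPM in both species.

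Counted by cell, 250 of 395 mouse members (63.3%; 58.3 to 68.1) had at least 3 UMIs of Rgs5, Notch3 and Mustn1 summed, and 6 of 135 rat members did (4.44%; 1.65 to 9.42). Thinning each cell to 3000 UMIs removes the difference in depth; the median depth was 9327 UMIs in mouse and 9171 in rat fibroblasts, 17062 and 15429 in epithelium. After thinning, which left out 2 mouse and 0 rat members, at least 1 UMI of these genes remained in 65.9% of mouse and 10.4% of rat members. Fewer cells that express these genes and less RNA of these genes per cell cannot be told apart in the summed levels. Cells with at least 3 UMIs of Hhip and Actc1, both given as airway muscle markers, were 302 of 395 in mouse (76.5%) and 47 of 135 in rat (34.8%). Hhip is also on the list of alveolar myofibroblast markers, and Actc1 had a UMI in only 24.8% of mouse members. The 302 mouse cells held 391 CPM of Pdgfra and 1419 of Tgfbi, both myofibroblast markers, and the 47 rat cells 26.4 and 914. Hhip and Actc1 thus do not set airway muscle apart from myofibroblasts. In mouse 188 cells met both this condition and that on Rgs5, Notch3 and Mustn1. These had 492 CPM of Rgs5, 403 of Mustn1 and 23.9 of Notch3, so Rgs5 and Mustn1 were not kept to cells without Hhip or Actc1. Of the others, 86 of 135 rat members (63.7%) met neither. The rat members without either kind of marker still had 5992 CPM of Acta2 and 9106 of Tagln. Among the mouse members 21.0% had at most 2 UMIs of Actg2, against 2.96% of the rat members.

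Airway and myofibroblast markers were uneven. Hhip, a hedgehog inhibitor that is on both lists, was 3.48-fold higher in mouse at 891 and 256 CPM, but its log2 value of −1.76 compares with −2.28 in fibroblasts. Lgr6, an R-spondin receptor of airway muscle, stood at 200 CPM in mouse and 13.5 in rat; fewer than 20 rat UMIs were counted over all rat cells, so it is not among the symbols compared. Des, Nog (a BMP antagonist) and Fgf18 (a growth factor, also on both lists) were within 2-fold. Of 7 alveolar myofibroblast markers compared 4 were at least 2-fold higher in mouse and 1 in rat, with a median of −1.53 beside −1.12 in fibroblasts. Pdgfra, the receptor that marks these cells, stood at 333 CPM in mouse and 107 in rat members, and Tgfbi, a matrix adhesion protein, at 1210 and 875. Mouse members with at most 2 UMIs of Actg2 had 493 CPM of Pdgfra, and those with at least 10 had 213. In rat members the values were 315, in 4 cells, and 80.8. The summed level of the myofibroblast list was 3261 CPM in mouse and 1894 in rat members, and its part in the other differences was not tested. Aspn, a matrix proteoglycan, was the member farthest towards mouse at −2.97. It was at −0.63 without the Rgs5, Notch3 and Mustn1 cells, and Pdgfra was at −0.85 among cells with 20 to 100 gate UMIs per 10000, so neither was then past 2-fold. In that window Aspn stood at −3.84, and Pdgfra was at −1.81 without the Rgs5, Notch3 and Mustn1 cells. Pericyte markers were closer, with 1 of 5 past 2-fold: Ndufa4l2 at 184 and 34.7 CPM.

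Since the mouse members spread further down the gate, the genes were also read in cells with at least 10 UMIs of Actg2, 130 mouse and 99 rat members. There Acta2 stood at 9054 CPM in mouse and 7450 in rat, Tagln at 5667 and 10321, and Tpm2 at 1994 and 5584. Hhip stood at 1189 and 258 CPM and Mustn1 at 442 and 34.5 in these cells. Tagln, Tpm2, Hhip and Mustn1 thus differed in the same direction among the cells richest in Actg2, with Tagln at 0.86 and no longer past 2-fold, and Acta2 was higher in mouse there. The gate genes were not level in these cells: Actg2 stood at 1613 CPM in mouse and 3907 in rat, Myh11 at 2469 and 3680, and Cnn1 at 588 and 1599.

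Genes of the nitric oxide pathway were lower in rat smooth muscle. Gucy1a1 and Gucy1b1 encode the paired subunits of soluble guanylate cyclase. Gucy1a1 had a UMI in 312 of 395 mouse members (79.0%) and 29 of 135 rat members (21.5%), or 44.8% and 8.15% after thinning, and was 5.44-fold higher in mouse at 235 and 43.2 CPM. Gucy1b1 was 2.66-fold higher (2.12 to 3.39) at 180 and 67.7 CPM. Pde5a, the phosphodiesterase that degrades cyclic GMP, was 4.75-fold higher (3.69 to 6.22) at 254 and 53.3 CPM. The log2 values in fibroblasts were −0.49, 0.49 and −0.98, and all 3 genes lay more than 1 log2 below both references. The fibroblast sets themselves differed in pericyte markers, with a median log2 value of 1.16 over the 5 compared. The part of this in the relative values was not tested. Gucy1b1 was under 2-fold in 3 of 20 alternatives, among them −0.79 with at least 30 UMIs of Acta2 and Tagln as the gate and −0.33 with species limits of 95% and 5%. Prkg1, the kinase that cyclic GMP activates, is not among the shared symbols.

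Receptors divided. Ednra, the endothelin receptor of muscle, was 2.79-fold higher in mouse at 198 and 71.1 CPM, whereas the second endothelin receptor Ednrb was 1.71-fold higher in rat at 1281 and 2186. In the whole list of contractile and relaxing receptors, with the cyclic GMP genes, 4 of 6 were at least 2-fold higher in mouse: Ednra, Gucy1a1, Gucy1b1 and Pde5a. The muscarinic, angiotensin, histamine and oxytocin receptors of the list stayed below 50 CPM in both species.

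The gene that lay farthest on the rat side relative to both references was Il17b, a secreted cytokine of the interleukin-17 family. It had 1286 UMIs in 96 of 135 rat members (71.1%) and 58 UMIs in 20 of 395 mouse members (5.06%), and 0 to 103 UMIs per rat cell with a median of 2. After thinning, 61.5% of rat and 1.53% of mouse members had a UMI. The level was 1089 CPM in rat and 10.8 in mouse, 101-fold higher (77.7 to 134). In the reference cells it was nearly absent in both species, at 1.21 CPM in rat and 0.138 in mouse fibroblasts and 0.282 and 0.135 in epithelium. Its relative value of 5.58 thus repeats the raw log2 value of 5.73, and the references cannot show how evenly its 2 species' genes were captured. It was 1279 CPM in rat members with at least 10 UMIs of Actg2 and 403 in those with 3 to 9, against 22.6 and 3.71 in mouse.

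Further symbols followed on the rat side relative to fibroblasts and epithelium. Cd9, a tetraspanin of cell adhesion and fusion, stood at 36.0 CPM in mouse and 492 in rat members, 13.7-fold higher, whereas epithelium expressed it in both species at 653 and 385 CPM. By cell, of rat members 60.7% and of mouse members 24.1% had a UMI of it, or 43.7% and 7.38% after thinning, beside 1.56% of rat and 3.03% of mouse fibroblasts after thinning. The 10 highest rat cells held 50.6% of the rat Cd9 UMIs. Serpinb1a, an inhibitor of neutrophil proteases, was 65.9-fold higher in rat (40.9 to 113) at 3.34 and 220 CPM, with UMIs in 45.2% of rat members, 1.77% of mouse members and 1.17% of rat fibroblasts (31.9%, 0.509% and 0.781% after thinning). Rab3b, a vesicle-trafficking GTPase, was 49.4-fold higher at 3.34 and 165 CPM. Smoc2, a secreted calcium-binding matrix protein, was 23.0-fold higher at 5.38 and 124 CPM, with 0 UMIs in rat fibroblasts. Dusp14, a phosphatase of MAP kinases, was 32.3-fold higher, and Hspa2, an HSP70 chaperone, 14.0-fold.

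The remaining rat-side symbols of that ranking showed 2 kinds of pattern. Igfbp5, an IGF-binding protein, was 3.93-fold higher in rat at 224 and 879 CPM while it was lower in rat fibroblasts (log2 −0.84) and epithelium (−0.92), and 10 cells held 65.5% of its rat UMIs. Itm2a, a membrane protein, and Ncam1, an adhesion molecule, behaved likewise, with smooth muscle values of 1.89 and 2.24 and fibroblast values of −1.24 and −0.72. For Itm2a 10 cells held 68.1% of the rat UMIs, and it was under 2-fold in 1 of 20 alternatives (0.92). Gsn, the actin-severing protein gelsolin, was within 2-fold in smooth muscle (0.75) and stands in the ranking because it was −2.29 and −2.96 in the reference cells. Ptgr1, a prostaglandin reductase, was 13.3-fold higher at 21.9 and 292 CPM.

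On the mouse side Nnat, an imprinted gene for a small endoplasmic reticulum protein, was the most abundant of the 12 symbols ranked. It had 0 to 332 UMIs per mouse cell with a median of 15 and 0 to 7 per rat cell with a median of 0, and stood at 1496 CPM in mouse and 91.4 in rat, 16.4-fold higher. A UMI of it was seen in 91.6% of mouse and 36.3% of rat members, or 83.5% and 19.3% after thinning. In fibroblasts the species were level, at 104 and 98.2 CPM (18.6% and 20.3% of thinned cells), and in epithelium they stood at 450 and 303. Without the Rgs5, Notch3 and Mustn1 cells its log2 value was −3.65, against −3.89 with all.

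Other mouse-side symbols were thinner. Prss35, a secreted protein of the serine protease family, was 15.8-fold higher in mouse at 160 and 10.2 CPM, and Col14a1, a fibril-associated collagen, 15.2-fold at 206 and 13.5, although rat fibroblasts had 225 CPM of it. Cdh4, a cadherin, was 9.55-fold higher, Tmtc1, an endoplasmic reticulum mannosyltransferase, stood at 101 CPM in mouse and 6.77 in rat, and Otulinl was 25.1-fold higher with 5 rat UMIs. Cdh4 and Tmtc1 lay below 10 CPM in both references of both species, so the references show little about their capture. Ehd4, an endocytic protein, and Fhl2, a LIM-domain co-regulator, stood at 164 and 189 CPM in mouse and 38.1 and 57.6 in rat, and Ehd4 was at −0.80 without the Rgs5, Notch3 and Mustn1 cells. S100a9, a neutrophil protein, is in both rankings through 1 cell, which held all 895 of its mouse UMIs against 1 UMI in rat members.

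**Figure D4:**
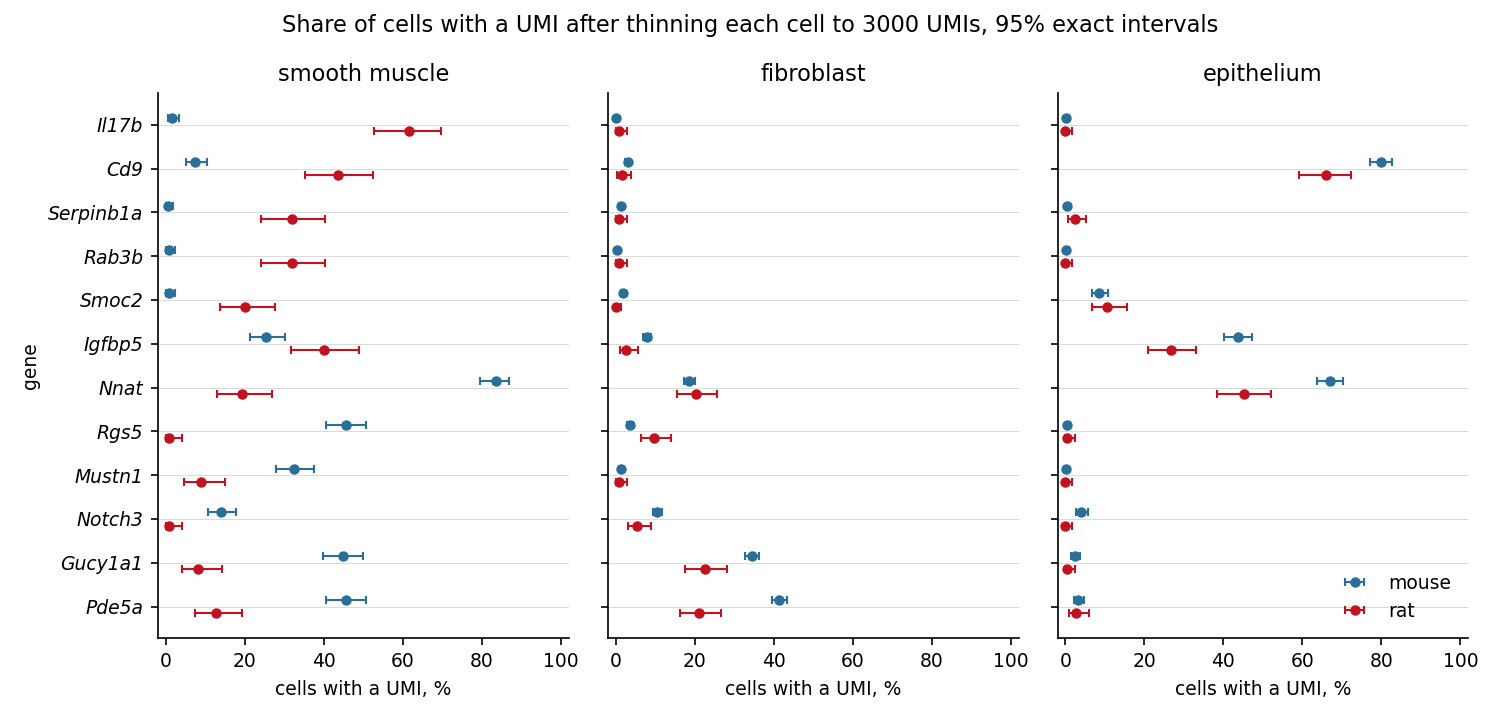
Share of cells with at least 1 UMI after each cell was thinned to 3000 UMIs (x axis, %), for 12 genes in smooth muscle, fibroblasts and epithelium of mouse (blue) and rat (red); bars are 95% exact binomial intervals. Il17b, Serpinb1a and Rab3b stand out in rat smooth muscle and are near 0 in the reference cells, while Nnat and Rgs5 stand out in mouse smooth muscle.

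Few genes of the extracellular matrix passed 2-fold over all members. None of 11 fibrillar collagen and processing genes passed 2-fold (median 0.25): Col1a1 stood at 1174 CPM in mouse and 1711 in rat, and the cross-linking enzyme Lox at 458 and 345. Tropoelastin (Eln) stood at 4137 and 5331 CPM over all members, a log2 value of 0.37, but this moved with the cells taken: it was 1.56 without the Rgs5, Notch3 and Mustn1 cells and −0.18 with 20 to 100 gate UMIs per 10000. Of 11 elastic-fibre genes 2 were at least 2-fold higher in mouse, Mfap4 and Fbln1, beside 16.4% of all symbols. Of 11 basement membrane genes Lama5 was higher in rat, and Col4a2 and Lamc1 in mouse, each by about as much in fibroblasts (log2 1.34, −1.28 and −1.36 against 1.40, −1.03 and −1.21). Col4a2 was at −0.71 without the Rgs5, Notch3 and Mustn1 cells and at −1.46 with 20 to 100 gate UMIs per 10000. Among matricellular genes Ccn2 was 6.50-fold higher in rat, with a log2 value of 2.63 beside 2.11 in fibroblasts, and Thbs1 5.96-fold higher in mouse.

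Growth-factor genes included several that differed between the species in fibroblasts too. Igf1 stood at 1171 CPM in mouse and 2889 in rat members, 2.47-fold higher in rat, at nearly the same log2 value as in fibroblasts (1.30 and 1.26), beside −0.17 in epithelium. Igf2 was 22.5-fold higher in rat at 12.2 and 276 CPM, and stood at 2.90 in fibroblasts and 3.17 in epithelium on the log2 scale. Of 14 IGF and imprinted growth genes 6 were at least 2-fold higher in rat and 3 in mouse; Mest and Plagl1, both imprinted, lay more than 1 log2 below both references, at −2.12 and −0.93. Of 14 BMP and TGF-beta genes 2 were at least 2-fold higher in each species, near the shares of all symbols (10.1% towards rat and 16.4% towards mouse). Tgfb2, a ligand, was 2.14-fold higher in rat at 122 and 262 CPM while it was −0.38 in fibroblasts, though its log2 value of 1.04 was under 2-fold in 4 of 20 alternatives (lowest 0.82). Id2, a BMP-responsive inhibitor of transcription, stood at 172 and 337 CPM against −0.81 in fibroblasts. Of 9 Wnt genes only Wnt5a passed 2-fold, 3.13-fold higher in mouse, and of 4 hedgehog genes only Hhip.

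Most proliferation genes lay towards mouse over all members, but the list medians changed sign over the alternatives. Above 0 lay 1 of 6 S-phase and 2 of 8 G2/M genes. Of 14 compared S-phase and G2/M genes none was at least 2-fold higher in rat, and Tyms and Birc5 were at least 2-fold higher in mouse, a share near the 16.4% of all symbols, though not among cells with at least 10 UMIs of Actg2 (log2 −0.80 and −0.24). The median was −0.43 for S phase and −0.31 for G2/M, beside 0.08 and 0.30 in fibroblasts. Over the alternatives the smooth muscle medians ranged from −1.06 to 0.71 and from −0.88 to 0.83. Mki67, which marks dividing cells, had a UMI in 38.7% of mouse and 12.6% of rat members, or 18.6% and 6.67% after thinning; in fibroblasts the shares were 39.7% and 39.1%, or 27.3% and 29.3% after thinning. In rat members 10 cells held 92.6% of its UMIs. Immediate early genes had a median of 0.87 with 4 of 10 at least 2-fold higher in rat, beside medians of 1.35 in fibroblasts and 0.82 in epithelium. Heat-shock genes had 2 higher in each species of 10 and a median of −0.08, and of 12 oxidative phosphorylation genes 1 passed 2-fold. The shares of all symbols were 10.1% towards rat and 16.4% towards mouse. Haemoglobin Hba-a1 summed to 75.2 CPM in mouse and 492 in rat members, and 10 cells held 94.8% of the rat UMIs.

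The genes shared by symbol held most but not all of the RNA. Symbols of 1 species only took 14.9% of the UMIs of mouse members and 177086 of the 1181431 UMIs of rat members. Among them were mouse Col1a2 at 2130 CPM, H19 at 1189 and Gapdh at 656, which have no symbol of the same name among the rat genes and were not compared.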

How the data were processed

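Lung cells of 1 control library were read as 10x 3' v3 droplets. The deposited UMI counts were made by the authors with Cell Ranger 6.0.1, per the file headers, on a joint set of 55403 mouse and 25399 rat features; the submitters' processing notes name the builds mm10 and rn6 and Seurat 4.3. The library held 123047433 UMIs. No column of another sample was used.

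The counts were summed over the gated cells of each species and scaled to 1000000 own-species UMIs, with 10 CPM added before log2. Python 3.11.15, numpy 2.4.6, pandas 2.3.3, scipy 1.17.1 and scanpy 1.11.5 were used, and the procedure was tested on simulated data. With 1 library no test was made: intervals are 95% exact Poisson for levels, Clopper-Pearson for shares and conditional binomial for ratios, and they cover counting error only. Symbols needed at least 20 UMIs over all cells of each species and 50 CPM in either smooth muscle. Doublets were kept in the reported values; a Scrublet score of at least 0.2 marked 154 mouse and 0 rat cells, whose removal was an alternative.

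Besides the members of 37 gene lists, the text names the 12 symbols farthest on each side by the log2 value, and the 12 on each side by that value relative to fibroblasts and epithelium, with at least 100 CPM and 20 UMIs in the species where they were higher; mitochondrial, ribosomal, haemoglobin and unnamed genes were left out of these rankings. A symbol's relative value is the smaller of its differences from both references where these share a sign. The members and lists were chosen with earlier results of these data known. Alternatives numbered 17, with 3 more added after seeing the data (without cells with 3 UMIs of Rgs5, Notch3 and Mustn1, a window on gate UMIs, and wider species limits). Some named symbols are not reported here.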

Additional observations from a re-analysis of the deposited data

Results flagged for a closer look

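The mouse cells carried a reporter that none of the comparisons used. EGFP stood at 9549 UMIs per 1000000 UMIs of both species in mouse smooth muscle, with 51779 UMIs and at least 1 in 395 of 395 cells. In rat smooth muscle it stood at 152 on the same scale, with 192 UMIs in 95 of 135 cells (70.4%; 61.9 to 77.9). This signal lies above the level that a count of 0 allows and was not assigned to a source. Rat members carried a median of 7.05% mouse UMIs, and whether their EGFP came with these was not tested. The other reporter in the feature set, Tomato, had 0 UMIs in both, which allows a share of up to 0.930% of mouse and 2.70% of rat cells.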

How the results depend on the processing

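The rat share of the gated cells moved with the gate: 20.2% at 5 UMIs, 34.9% at 20, 43.2% with Actg2 alone at 10, 18.0% with Acta2 and Tagln at 30, 30.6% with 20 to 100 gate UMIs per 10000, 47.1% without cells with 3 UMIs of Rgs5, Notch3 and Mustn1, and 2.71% with species limits of 95% and 5%, which left 11 rat cells. Symbols at least 2-fold higher in rat and in mouse, and those 1 log2 above and below both references, numbered 213, 300, 48 and 30 with 50 CPM added, 587, 1150, 145 and 122 with no level filter, and 149, 125, 39 and 18 at 200 CPM, where rat-higher symbols were 54.4% of the calls against 38.1% and the median over symbols was 0.17. With limits of 95% and 5% that share was 47.6% and 146 symbols lay above both references; without cells with 3 UMIs of Rgs5, Notch3 and Mustn1 146 lay above and 106 below. Thinned cells gave 110 below, and the gate on Acta2 and Tagln 40. Of 2000 values of 100 single genes, 1574 moved by less than their 95% counting error, 420 moved by more and 6 reversed; of 529 list medians, set against the median counting error of their genes, the numbers were 414, 113 and 2. Reversed were S100a9 (0.13 at 20 UMIs, 0.12 at 10 per 10000, 0.15 with Actg2 alone, 0.20 in the window; each gate lacks the 1 cell that held its mouse UMIs), Actc1 at 0.27 without cells with 3 UMIs of Rgs5, Notch3 and Mustn1, and, with limits of 95% and 5%, Junb at −0.30 and the medians of the vascular and erythroid lists at 0.30 and −0.11, while Rgs5, Notch3 and Mustn1 were at −2.28, −2.31 and −2.38; the cause of the others was not tested. Depth limits low genes: the 20 rat UMIs of Rgs5 gave 16.9 CPM. No paired analysis was possible because only 1 library was compared.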
